A study of Gallus gallus with 16 samples.

Results

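The response of pre-ovulatory granulosa cells (poGC) of the hen to knockdown of FOXL2 was read from 8 of the 16 RNA-Seq libraries of the study, the 4 labelled poGC-kd (here poGC-KD) and the 4 labelled poGC-nc (here poGC-CT). All 8 libraries came from granulosa cells of pre-ovulatory follicles of White Leghorns aged 25-30 weeks. The cells were grown overnight in Medium 199 with fetal bovine serum and then transfected with Lipofectamine 3000. The poGC-KD cells received an siRNA against FOXL2 (FOXL2-siRNA) and the poGC-CT cells a nonsense siRNA (NC-siRNA). The other 8 libraries, from pre-hierarchical granulosa cells (phGC) treated with the same reagents, served only to show where the response of poGC differed. The model is a transient knockdown in primary cultures, with a single siRNA to FOXL2 and no library of untransfected cells among the 16. The paper mentions 4 hens and speaks of 4 biological duplicate samples. Neither it nor the labels say which hen each culture came from. The p-values therefore measure only the spread between these libraries, which may be technical. The comparison asked which genes and functions change in poGC when FOXL2 is lowered, and is given here mainly for functions other than cell division.

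FOXL2 is a forkhead transcription factor of granulosa cells and a determinant of ovarian identity in vertebrates. In the hen, granulosa cells of pre-ovulatory follicles surround a yolk-filled oocyte, make progesterone for the theca layer, and deposit the perivitelline layer between themselves and the oocyte. Around ovulation they produce prostaglandins and proteases. In mammals, FOXL2 is known to act on genes of steroid synthesis and on follistatin.

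The designed siRNA strands are shown because they are the only treatment that separated the groups. They are written 5′ to 3′, with bases 2 to 8 of each antisense strand (the seed, which can also pair with other transcripts) in capitals.
FOXL2-siRNA sense: gccucaacgagugcuucautt
FOXL2-siRNA antisense: aUGAAGCAcucguugaggctt
NC-siRNA sense: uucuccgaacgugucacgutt
NC-siRNA antisense: aCGUGACAcguucggagaatt
Each strand had 21 bases, of which 19 of 19 duplex bases paired with the other strand, and both duplexes had a GC content of 52.63%. The seeds of FOXL2-siRNA and NC-siRNA held the same base at 3 of 7 positions. Which of the changes below follow from FOXL2 and which from another transcript paired with this seed cannot be told apart with 1 siRNA.

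The 4 poGC-KD libraries had totals of 45697479 to 56121795 counts on 15937 to 16400 gene rows, against totals of 36191442 to 53062138 on 16147 to 16311 rows for poGC-CT. Pairs of libraries of a group had a Pearson's r of 0.9616 to 0.968 across genes in poGC-KD and of 0.9604 to 0.9669 in poGC-CT, on log2 CPM (counts scaled to an equal library total). Markers of granulosa cells summed to 4128 to 4449 CPM in the poGC-KD libraries, against 4485 to 4759 in the poGC-CT libraries. FSHR, the receptor of follicle-stimulating hormone, and CYP11A1, which makes pregnenolone from cholesterol, were among them and were well counted in both groups. Of the 19 granulosa markers 4 rose and 6 fell, and the sums of the groups did not overlap. These sums include FOXL2, with a mean of 457 CPM in poGC-KD and 730 in poGC-CT. Their gap is therefore in large part that of the siRNA target. Markers of red blood cells stood near 0, at 0.0645 to 0.2152 CPM in the poGC-KD libraries, against 0 to 0.1405 in the poGC-CT libraries. Of the 9 oocyte markers in the files, ZP3, which granulosa cells of the hen make themselves, held nearly the whole sum of 26900 to 33810 CPM in the poGC-KD libraries, against 36660 to 40050 CPM in the poGC-CT libraries, while each of the others stayed below 3 CPM. Of the 5 tested, ZP3 (-0.33) and GDF9 were lower and 0 higher. Markers of theca, stromal, contractile, endothelial, epithelial and blood cells are given below beside related results. Because RNA of a whole culture was sequenced, fewer cells of a type and less RNA per cell cannot be told apart.

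FOXL2 itself, the target of the siRNA, had 24509, 21336, 22658 and 18758 normalized counts in the poGC-KD libraries, against 32845, 35676, 36619 and 34378 in the poGC-CT libraries. The groups did not overlap, and 37.5% of the transcript was lost (log2 fold change -0.68, standard error 0.0792, edgeR adjusted p = 0.000353). An exact permutation test over the 70 ways to choose 4 of 8 libraries gave a two-sided p of 0.0286, the smallest that 4 against 4 libraries allow. Since 62.5% of the control transcript level remained in poGC-KD, all changes below accompany a partial loss of the transcript. The paper also reports lower FOXL2 in poGC-KD by qRT-PCR and, for the protein, by Western blot. The RNA-Seq counts do not give the level of the protein.

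Of the 14379 gene rows tested, 4138 (28.8%) had an adjusted p under 0.05 in the quasi-likelihood test of edgeR (adjusted by Benjamini and Hochberg over all rows), the test behind every adjusted p given here. Of all rows tested, 15.2% rose (2187) and 13.6% fell (1951). Most changes were small, with a median size of 0.42 on the log2 scale among the rows called. A fold above 1.5 was met by 1363 rows (9.48%), of which 745 were rises (5.18%) and 618 falls (4.3%). The poGC-KD and poGC-CT libraries did not overlap for 31.9% of all rows. The median log2 fold change over all rows tested was 0.01, so that lists of genes are read against a middle close to no change. Counts of list members are read against the 15.2% and 13.6% of all rows. Hand-made lists of cell division genes held 309 of the rows, of which 224 rose and 11 fell. Outside these lists the counts were close to even, with 1963 rises (14%) and 1940 falls (13.8%), and 574 rises (4.08%) against 616 falls (4.38%) with a fold above 1.5. The plot of fold change against level shows that the largest fold changes of all lay among rows of few counts or uneven libraries.

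**Figure D1:**
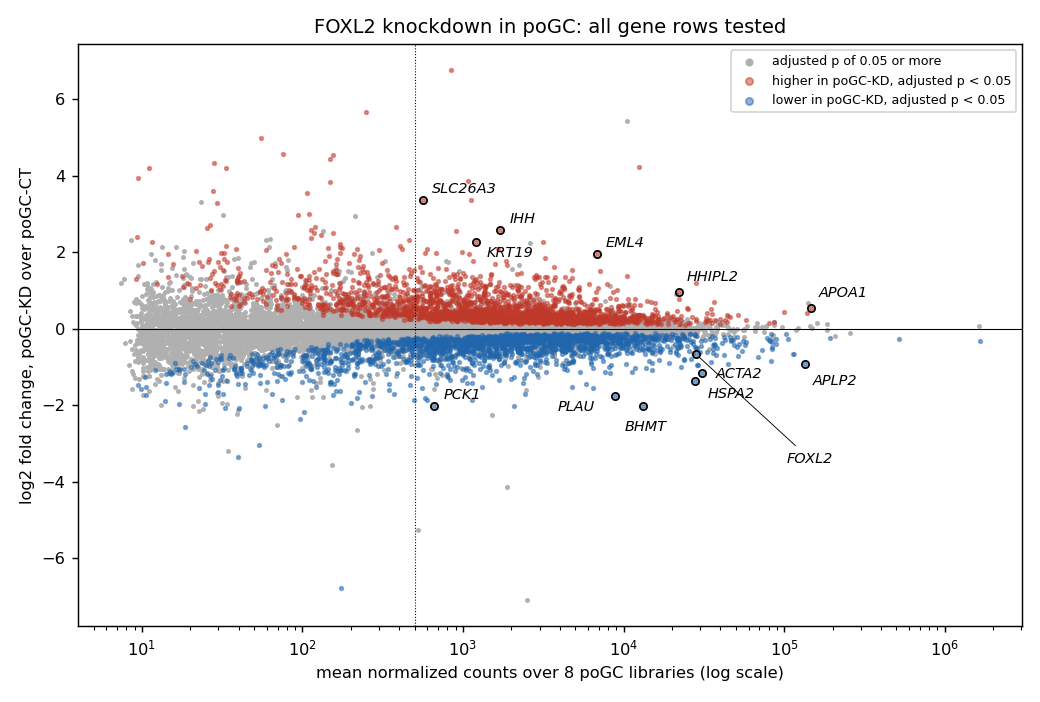
Log2 fold change of poGC-KD over poGC-CT (vertical axis) against the mean normalized counts over the 8 libraries (horizontal, log scale) for the 14379 rows tested, with rises in red, falls in blue and rows that did not pass the test in grey. The dotted line marks the mean of 500 counts above which the largest changes were named, and 13 genes of the text are circled.

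The largest changes were taken from genes with a mean of at least 500 normalized counts (counts scaled to a common library size by TMM), an adjusted p under 0.05 and no overlap between the groups, while genes of the lists and those the study names are given at any level. Among the 9306 rows at this level, 34.3% were called, with 18.1% higher and 16.2% lower, a fold above 1.5 was met by 4.12% upward and 3.36% downward, and the groups did not overlap for 37.3%. The 20 largest rises outside the hand-made cell division lists ranged from 3.36 to 1.60 on the log2 scale. The 20 largest falls outside them ranged from -2.02 to -1.34. A part in cell division of genes outside these lists was not examined. The rises held a set of membrane transporters, an epithelial keratin, a hedgehog ligand and a microtubule-binding protein. The falls held enzymes of glucose and methyl metabolism, matrix and matrix-cleaving proteins, and proteins of contractile cells.

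SLC26A3, a chloride-bicarbonate exchanger known from the gut, had 942, 1004, 1037 and 1129 normalized counts in the poGC-KD libraries, against 113, 103, 88.5 and 95.5 in the poGC-CT libraries. The lowest poGC-KD library stood far above the highest poGC-CT library, a rise of 10.3-fold (log2 fold change 3.36, standard error 0.102, edgeR adjusted p = 1.02e-06). Other carriers rose with it: SLC1A6 (2.07), a glutamate transporter, SLC16A12 (1.97), of the monocarboxylate transporter family, and SLC35F3 (1.60). Over all 218 tested genes with an SLC symbol, a list made after these values had been seen, 46 rose (17 with a fold above 1.5) and 26 fell (6 with a fold above 1.5), and the median was 0.04. Among those that fell was SLC6A2 (-1.87), the noradrenaline transporter.

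IHH, the hedgehog ligand known from cartilage and, in mammals, from granulosa cells signalling to the theca, had 3638, 2866, 2739 and 2449.8 normalized counts in the poGC-KD libraries, against 431, 473, 589.6 and 460.3 in the poGC-CT libraries. The groups lay far apart, with replicate 1 the highest poGC-KD library (log2 fold change 2.58, standard error 0.145, edgeR adjusted p = 8.11e-06). The rest of the pathway was then looked at, as a choice made after the rise of IHH was seen. Ligands bind the receptor PTCH1, which releases SMO, and the GLI factors carry the signal, while SUFU holds them back. Of 13 tested genes of the pathway, 4 rose and 1 fell. Beside IHH, the rises were PTCH1 (0.70), SMO (0.24) and GLI2 (2.12). The small rise of SMO went above an adjusted p of 0.05, to between 0.0522 and 0.0981, with any one of 6 libraries left out (all but poGC-KD replicates 1 and 4), and to 0.0834 with the replicate block. The fall was SUFU, with a log2 fold change of -0.42 and an adjusted p of 0.000294 (edgeR). GLI2 was poorly counted (234 ± 63.6 normalized counts in poGC-KD and 54.1 ± 12.4 in poGC-CT, SD, n = 4 each). GLI1, in mammals a transcriptional target of the pathway, had few counts in both groups (27.8 ± 8.27 normalized counts in poGC-KD and 29.1 ± 11.6 in poGC-CT, SD, n = 4 each; log2 fold change -0.07, edgeR adjusted p = 0.905), and HHIP, another known target, had a log2 fold change of -0.48 (edgeR adjusted p = 0.0632). HHIP passed, as a fall, with DESeq2 (adjusted p = 0.0489), with at least 10 counts in every library (0.0421) and without poGC-KD replicate 2 (0.0202). PTCH1, GLI1 and HHIP are also in the marker list of theca cells, whose part in these values was not tested.

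KRT19, a keratin of simple epithelia, had 1973, 1913, 2086 and 1957 normalized counts in the poGC-KD libraries, against 364, 407, 460.0 and 429 in the poGC-CT libraries. The groups were apart by 4.77-fold, with little spread within either (log2 fold change 2.26, standard error 0.0777, edgeR adjusted p = 1.54e-06). KRT8 (1.14), with which type I keratins pair, rose as well. Both belong to the marker list of the ovarian surface epithelium, whose summed level was 134 to 146.8 CPM in the poGC-KD libraries, against 88.76 to 110.7 in the poGC-CT libraries. KRT19 had a mean of 41.5 CPM in poGC-KD and 8.68 in poGC-CT, and KRT8 of 19.5 and 8.82. The higher sum is therefore largely that of these keratins themselves. Of its 6 tested markers 3 rose, the third being KRT7 (0.26), and 1 fell, CDH1 (-1.70, edgeR adjusted p = 0.0439). CDH1 was uneven and its groups overlapped. It had 3.48, 2.13, 3.35 and 5.6 CPM in the poGC-KD libraries, against 18.3, 19.3, 5.81 and 4.06 in the poGC-CT libraries. MSLN (0.00) and EPCAM (0.33) were not called, and MUC16 was at or under 3 counts in each library. The part of surface epithelium in these rises was not tested.

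EML4, which binds microtubules, had 10702, 10369.9, 10489.9 and 11682 normalized counts in the poGC-KD libraries, against 2799, 2596, 2810.2 and 2982 in the poGC-CT libraries. It was the best counted of the 20 largest rises, the groups did not overlap, and the rise of 3.87-fold was precise (log2 fold change 1.95, standard error 0.0575, edgeR adjusted p = 1.02e-06). The remaining large rises had varied known roles. PRELP (1.99) is a leucine-rich proteoglycan of the matrix, GGT5 (1.99) an enzyme that cleaves leukotriene C4, and PLXNA2 (1.76) a receptor of semaphorins. ASTN2 (2.56) is known from migrating neurons, ESYT3 (1.96) tethers the endoplasmic reticulum to the plasma membrane, and EGFL7 (1.68) is a secreted protein first known from vessels. NAT8L (1.60) makes N-acetylaspartate, and C2ORF88 (1.76) is a small membrane anchor of protein kinase A. KLHDC8B (1.84), PRRT3 (2.08) and PERP2 (1.61) were the others, beside FAM78A and MAPK9, which were uneven: their poGC-KD libraries differed by up to 4.94-fold and 3.05-fold.

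The first 2 of the 20 largest falls were those of metabolic enzymes. PCK1, the enzyme of gluconeogenesis that makes phosphoenolpyruvate, had 269, 255, 288 and 234 normalized counts in the poGC-KD libraries, against 1027, 1073, 1133 and 1006 in the poGC-CT libraries. The libraries of each group lay close together and far from those of the other, a loss of 75.3% (log2 fold change -2.02, standard error 0.0832, edgeR adjusted p = 2.83e-06). BHMT, which remethylates homocysteine with betaine, had 4606, 5839, 5425 and 5128 normalized counts in the poGC-KD libraries, against 21047, 23511, 19535 and 20658 in the poGC-CT libraries. It lost 75.2% from a high level, again without overlap (log2 fold change -2.01, standard error 0.0847, edgeR adjusted p = 2.83e-06). DMGDH, which works on the dimethylglycine that BHMT releases, fell as well (log2 fold change -1.62, edgeR adjusted p = 9.71e-06). In the list of the methionine cycle and polyamines, 9 of 29 tested genes fell and 5 rose. The rises, which numbered 3 with the replicate block and without any one of poGC-KD replicates 2 and 3 or poGC-CT replicates 3 and 4, were small and included MAT2B (0.52), a subunit of methionine adenosyltransferase, and SRM (0.36), spermidine synthase, while ODC1 (-0.46), which makes putrescine, and its regulator OAZ1 (-0.51) both fell.

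RDH10, which oxidizes retinol on the way to retinoic acid, had 2223, 2623, 2428 and 2568 normalized counts in the poGC-KD libraries, against 7648, 7433, 6144 and 6933 in the poGC-CT libraries. The highest poGC-KD library lay far below the lowest poGC-CT library (log2 fold change -1.52, standard error 0.0809, edgeR adjusted p = 6.64e-06). Retinoid genes moved both ways, 5 up (21.7%) and 4 down (17.4%) among 23 tested, against 15.2% and 13.6% of all rows. ALDH1A3 (1.31), a retinaldehyde dehydrogenase, rose, and TTR (-1.27), the carrier of retinol and thyroid hormone, fell. Other large falls outside the groups below were COLEC10 (-1.86), a collectin, EDNRB (-1.34), an endothelin receptor, NPR3 (-1.34), the clearance receptor of natriuretic peptides, LRRC17 (-1.82) and SRRL (-1.54). DNAJB4 and TTLL1 also met the rule but were uneven. DNAJB4 had a log2 fold change of -1.46, and its edgeR adjusted p of 0.0233 went above 0.05, to between 0.0506 and 0.0624, without any one of poGC-KD replicates 1, 2 and 3 or poGC-CT replicates 1 and 4.

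Among the 300 rows with the highest mean counts, 45 rose and 104 fell. Of the 9306 rows with a mean of at least 500 counts, 18.1% rose and 16.2% fell. APLP2, a relative of the amyloid precursor protein, had 89022, 94343, 93622 and 98874 normalized counts in the poGC-KD libraries, against 177088, 177865, 175188 and 177979 in the poGC-CT libraries. The poGC-CT libraries lay within a few per cent of each other and the poGC-KD libraries had lost 46.9% of that level (log2 fold change -0.91, standard error 0.0393, edgeR adjusted p = 2.83e-06). NOV (-0.94), a secreted protein of the CCN family, FGL2 (-0.97), a fibrinogen-like protein, COL3A1 (-0.88) and LOC107057441 (-0.94) fell as well. HSPA2, a chaperone of the HSP70 family, had 12107, 16014, 16045 and 17890.5 normalized counts in the poGC-KD libraries, against 43244, 44243, 35363 and 38913 in the poGC-CT libraries, also without overlap (log2 fold change -1.38, standard error 0.122, edgeR adjusted p = 7.37e-05). Its relative HSPA4 (-0.79) fell. The heat shock list held 7 rises, 1 with a fold above 1.5, and 7 falls, 3 with a fold above 1.5, among 37 tested, and the rises numbered 1 to 4 without any one library other than poGC-KD replicate 1 and poGC-CT replicate 2, with 1 without poGC-CT replicate 4.

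The best-counted rises were smaller. APOA1, the main protein of high-density lipoprotein, had 184514, 168725, 184558 and 160160.0 normalized counts in the poGC-KD libraries, against 114226, 136787, 109867 and 117470.2 in the poGC-CT libraries. The groups did not overlap, and the fold was 1.46-fold (log2 fold change 0.55, standard error 0.0780, edgeR adjusted p = 0.00106). HHIPL2, a secreted relative of HHIP, had 28894, 28879.9, 29920.5 and 30054 normalized counts in the poGC-KD libraries, against 15253, 14632, 15413 and 15234 in the poGC-CT libraries. The libraries of a group lay within 1.05-fold of each other, so that its 1.95-fold difference was far outside their spread (log2 fold change 0.96, standard error 0.0347, edgeR adjusted p = 1.76e-06). RP5-877J2.1 (1.19), SLC6A14 (0.70), a carrier of neutral and basic amino acids, SMAD2 (0.77), which relays activin and TGF-beta signals, KLHL36 (0.52), TNRC18 (0.53) and PLIN2 (0.52), which coats lipid droplets, completed the set. The plot of library values shows these groups side by side.

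**Figure D2:**
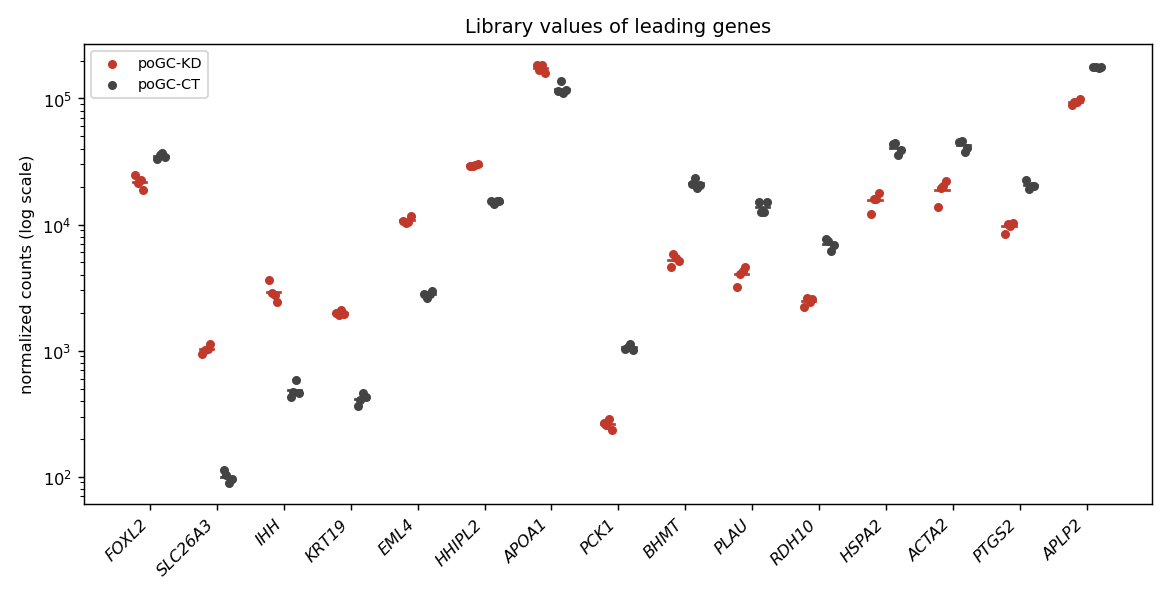
Normalized counts (log scale) of 15 genes in each of the 4 poGC-KD libraries (red, left of each pair) and the 4 poGC-CT libraries (grey, right), with the group mean as a line. The groups do not overlap for any of the 15 genes, which were named because of such differences, apart from FOXL2 and PTGS2.

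Among genes of the actin cytoskeleton and the contractile apparatus, falls outnumbered rises. Of 57 tested genes of smooth muscle and the contractile actin system, 24 fell and 4 rose. A fold above 1.5 was met by 11 of the falls and by all 4 rises. The median was -0.18, against 0.01 for all rows. Over the alternatives run, 21 to 27 fell and 2 to 4 rose. ACTA2, the actin of smooth muscle, had 13899, 19535, 20384 and 22014 normalized counts in the poGC-KD libraries, against 45487, 45614, 37779 and 40791 in the poGC-CT libraries. The lowest poGC-KD library, replicate 1, had 13899 counts, but the other poGC-KD libraries too lay far below all of poGC-CT (log2 fold change -1.16, standard error 0.136, edgeR adjusted p = 0.000353). TAGLN, an actin-binding protein of smooth muscle, had 446, 416, 509 and 501 normalized counts in the poGC-KD libraries, against 1222, 1405, 1092 and 1050.5 in the poGC-CT libraries and lost 60.7% (log2 fold change -1.35, standard error 0.111, edgeR adjusted p = 5.12e-05). CSRP2 (-1.42) and FHL2 (-1.77), both LIM domain proteins, ACTN1 (-1.04), which crosslinks actin, PDLIM1 (-0.94), its partner, and MYL9 (-0.24), a myosin light chain, fell too, and so did the far more counted cytoplasmic actin ACTB (-0.28). The 4 rises included TNNT2 (0.91), a troponin, and 2 of them were lost when poGC-KD replicate 1 or 3, or poGC-CT replicate 2 or 4, was left out.

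YAP and TEAD are factors that respond to cell tension and density. Of 28 tested genes that are known targets of them, 11 fell and 3 rose, with a median of -0.23. Without poGC-CT replicate 4 the rises numbered 1. CYR61 (-0.89) and CTGF (-0.42), secreted proteins of the CCN family, EDN1 (-0.96) and DLC1 (-0.90) were those with the lowest p. Among markers of contractile cells 4 fell and 1 of few counts rose, while those of stromal cells moved both ways. Smooth muscle and pericyte markers summed to 104 to 127.5 CPM in the poGC-KD libraries, against 143.5 to 151.2 in the poGC-CT libraries. Of 8 tested, 1 was higher, MYH11 (0.80), and 4 were lower, ACTG2 (-1.62), LMOD1 (-0.52), MYOCD (-0.51) and CNN1 (-0.60). MYH11 had few counts, with means of 2.51 CPM in poGC-KD and 1.43 in poGC-CT (edgeR adjusted p = 0.0454). So had ACTG2 (1.75 and 5.41) and CNN1 (1.45 and 2.20). SYNPO2 (-0.71), DES (-0.01) and PDGFRB (-0.03) were not called. These markers include smooth muscle genes of the kind in the contractile list, so that they are no separate evidence. Fibroblast markers summed to 1077 to 1142 in the poGC-KD libraries, against 1427 to 1512 in the poGC-CT libraries. COL3A1 held the largest part, with a mean of 519 CPM in poGC-KD and 952 in poGC-CT. Of 7 tested 3 rose and 2 fell, with OGN at or under 3 counts. The rises were THY1 (0.50), POSTN (1.16) and COL1A1 (0.66), and the falls COL3A1 (-0.88) and DCN (-1.39). POSTN and DCN had few counts, with means of 2.59 and 2.84 CPM in poGC-KD and 1.15 and 7.46 in poGC-CT. Theca markers summed to 119.1 to 147.7 in the poGC-KD libraries, against 152.5 to 203.6 in the poGC-CT libraries, mostly CYP17A1. Of 5 tested, 1 was higher, PTCH1 (0.70), and 1 lower, CYP17A1 (-0.64). Endothelial markers ranged from 108.2 to 145.2 in poGC-KD and from 77.7 to 192.9 in poGC-CT, and 2 of 9 fell, CDH5 (-1.65) and EMCN (-1.35). Both had few counts, with means of 2.28 CPM in poGC-KD and 7.16 in poGC-CT for CDH5, and 1.29 and 3.29 for EMCN. The better counted CLDN5 (-0.31), PECAM1 (0.003) and TIE1 (0.007) were not called. Neither were VWF (-1.29), ERG (-0.38), KDR (-0.06) and TEK (0.56). PLVAP (-1.42), a protein of endothelial fenestrae, is outside this marker list and was named for its large fall. The part of such cells in the contractile and stromal changes was not tested.

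Among genes of ovulation, falls again outnumbered rises. Of 35 tested genes known from granulosa cells around ovulation, 14 fell (10 with a fold above 1.5) and 6 rose (4), with a median of -0.28. They included genes of prostaglandin synthesis. PTGS2, the inducible cyclooxygenase, had 8487, 10138, 9711 and 10322 normalized counts in the poGC-KD libraries, against 22360.3, 19175, 20311 and 20377 in the poGC-CT libraries. All poGC-KD libraries lay far below the lowest poGC-CT library (log2 fold change -1.09, standard error 0.0722, edgeR adjusted p = 1.72e-05). PLA2G4A (-0.91), the phospholipase that supplies arachidonic acid, HPGDS (-1.01), which makes prostaglandin D2, and PTGFR (-0.80), the receptor of prostaglandin F2 alpha, fell as well. PTGES, which makes prostaglandin E2, had 415 ± 83.7 normalized counts in poGC-KD and 409 ± 60.1 in poGC-CT (SD, n = 4 each) and did not pass the test (log2 fold change 0.02, edgeR adjusted p = 0.947). Both tested endothelins fell: EDN1, which constricts vessels and smooth muscle, had 5117, 5922, 6038 and 5673 normalized counts in the poGC-KD libraries, against 11563, 10826, 10420.1 and 11300.5 in the poGC-CT libraries, without overlap (log2 fold change -0.96, standard error 0.0603, edgeR adjusted p = 1.42e-05), and EDN2 (-0.62) fell too. TNFAIP6 (-0.70), which binds hyaluronan, and VCAN (-0.59), a large proteoglycan, fell, in contrast to HAS2 (1.00), which makes hyaluronan, and PTX3 (1.203), a pentraxin of the same matrix in mammals, which rose from a low count. CEMIP, which breaks hyaluronan down, had 1152, 1133, 1047 and 1176 normalized counts in the poGC-KD libraries, against 3995, 3474, 3549 and 3805 in the poGC-CT libraries, a fall of 69.6% (log2 fold change -1.72, standard error 0.0627, edgeR adjusted p = 1.76e-06).

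Growth factor ligands held more falls than rises. In the list of EGF, FGF and related ligands, 13 of 38 tested fell (11 with a fold above 1.5) and 4 rose (2). The median was -0.31. FIGF (-1.23) (vascular endothelial growth factor D), ANGPT2 (-0.81), which loosens vessels, and HBEGF (-0.83), a ligand of the EGF receptor, fell. KITLG (0.82), which granulosa cells offer to the oocyte and theca, rose. The number of rises went down to 2 without any one of poGC-KD replicates 2 and 3 or of the 4 poGC-CT libraries, and to 1 with the replicate block. Related secreted proteins outside that list were ANGPTL4 (-0.54), an inhibitor of lipoprotein lipase, and ANGPTL2 (-1.29), both lower. Stanniocalcins, secreted glycoproteins first known from calcium balance in fish, went opposite ways. STC2 had 4109, 4389, 5542 and 5162 normalized counts in the poGC-KD libraries, against 2192, 1384, 1895 and 2050.4 in the poGC-CT libraries, a rise without overlap (log2 fold change 1.35, standard error 0.152, edgeR adjusted p = 0.000281). The more counted STC1 fell (log2 fold change -0.67, edgeR adjusted p = 0.000451).

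The TGF-beta family showed opposite changes between its members. Inhibins and activins share beta chains: INHA with a beta chain forms inhibin, which lowers follicle-stimulating hormone, and beta chains alone form activin. The list held 61 tested genes, of which 9 rose (14.8%) and 16 fell (26.2%), with a median of -0.10. Of all rows, 15.2% rose and 13.6% fell, so that only the falls stood above the share of all rows. INHBB, the beta B chain, had 893, 683, 640.4 and 463 normalized counts in the poGC-KD libraries, against 175, 112, 162 and 184 in the poGC-CT libraries. All 4 poGC-KD libraries were above all poGC-CT libraries, with replicate 1 the highest (log2 fold change 2.08, standard error 0.225, edgeR adjusted p = 0.000235). INHA (0.56) rose as well. INHBA, the beta A chain, had 956, 523, 757 and 1440.2 normalized counts in the poGC-KD libraries, against 2096, 2209.7, 2603 and 1610.1 in the poGC-CT libraries. Its libraries were uneven, with up to 2.75-fold between those of a group, but did not overlap (log2 fold change -1.21, standard error 0.287, edgeR adjusted p = 0.0134). AMH, anti-Müllerian hormone, a product of immature granulosa cells, had 1460.4, 1273, 1214 and 1056 normalized counts in the poGC-KD libraries, against 2331, 2341, 2427 and 2212 in the poGC-CT libraries and lost 46.3% (log2 fold change -0.90, standard error 0.0921, edgeR adjusted p = 0.000175). GREM1, an antagonist of BMP, had 305, 388, 388 and 376 normalized counts in the poGC-KD libraries, against 1057, 985, 966 and 953 in the poGC-CT libraries (log2 fold change -1.44, standard error 0.0920, edgeR adjusted p = 1.46e-05), with poGC-KD replicate 1 below the other 3. The ligand BMP3 (-1.46) and the receptor ACVR1 (-0.52) fell.

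FST, follistatin, which binds activin, had 112, 134, 112 and 123 normalized counts in the poGC-KD libraries, against 150.4, 149.9, 169.8 and 203 in the poGC-CT libraries. The groups did not overlap, but the counts were low and the test was passed narrowly (log2 fold change -0.49, standard error 0.142, edgeR adjusted p = 0.0327). Its adjusted p was above 0.05 with the replicate block (0.0803) and without any one of poGC-KD replicates 1, 3 and 4 (0.0673, 0.0853 and 0.0564) and poGC-CT replicates 3 and 4 (0.0661 and 0.077).

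**Figure D3:**
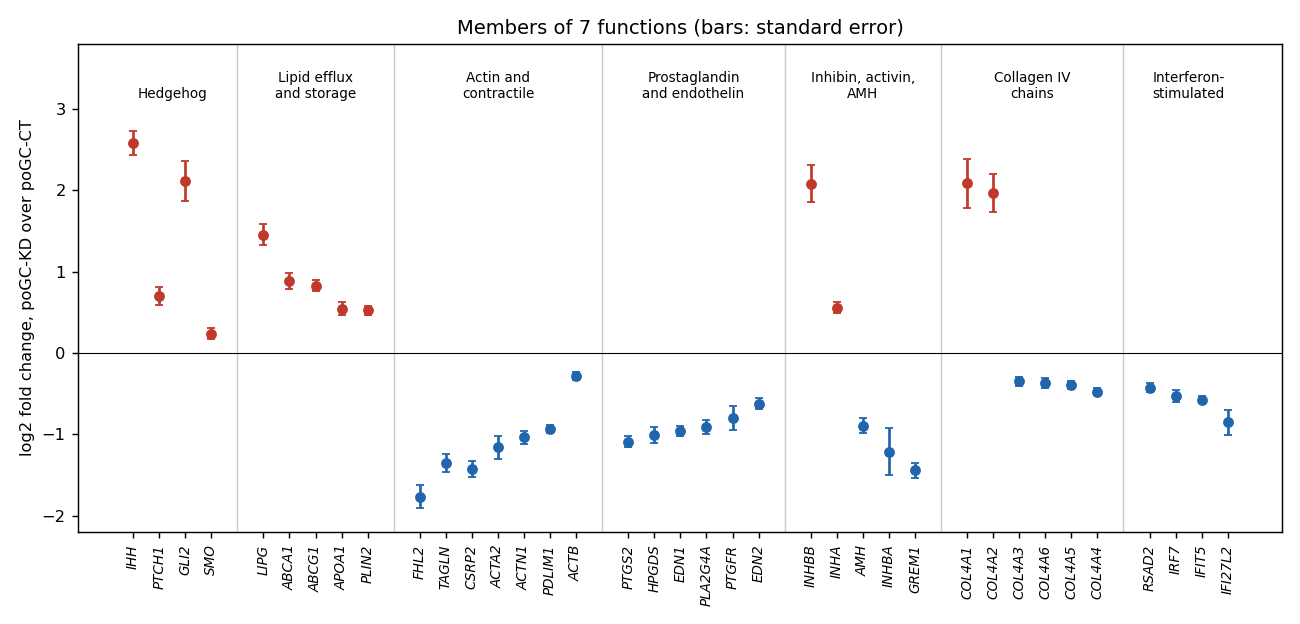
Log2 fold change of poGC-KD over poGC-CT for members of 7 functions, each named in the text, with the standard error of the fit as bars, rises in red and falls in blue. Within inhibins and within the chains of collagen IV, members lie on both sides of 0.

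Steroid synthesis changed in both directions. Of 26 tested genes, 6 rose (4 with a fold above 1.5) and 4 fell (2 with a fold above 1.5), with a median of 0.09. Of all rows, 5.18% rose and 4.3% fell past that fold. STAR, which carries cholesterol into the mitochondrion, had 2744, 2562, 2876 and 2637 normalized counts in the poGC-KD libraries, against 3540.1, 3774, 3908 and 3626 in the poGC-CT libraries, lower in each poGC-KD library (log2 fold change -0.46, standard error 0.0524, edgeR adjusted p = 0.000316). CYP17A1, which leads from progestins to androgens, had 5009.9, 4577, 4460.2 and 3811 normalized counts in the poGC-KD libraries, against 6080.1, 8647, 6815 and 6376 in the poGC-CT libraries. Its poGC-CT libraries were spread widely, but even the lowest lay above the highest poGC-KD library (log2 fold change -0.64, standard error 0.122, edgeR adjusted p = 0.00453). CYP17A1 is also in the marker list of theca cells, whose part in this fall was not tested. HSD17B1, which reduces oestrone, lost 56.1% (log2 fold change -1.19, edgeR adjusted p = 4.13e-05). The enzymes between, CYP11A1 and HSD3B2, were not called: CYP11A1 had a log2 fold change of 0.10 (edgeR adjusted p = 0.226) and HSD3B2 of -0.04 (edgeR adjusted p = 0.622). FSHR did not pass the test either (log2 fold change -0.04, edgeR adjusted p = 0.588). The rises included NR5A2 (1.07), a nuclear receptor that activates steroid enzymes, NR0B1 (1.09), which represses them, and SULT1E1 (0.92), which sulphates oestrogens. CYP19A1, aromatase, was not tested, since it had 0 counts in 7 libraries and 2 counts in poGC-CT replicate 4.

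Lipid handling held more rises than falls. Of 28 tested genes of lipoprotein receptors, efflux and storage, 12 rose (6 with a fold above 1.5) and 3 fell (1). The median was 0.14. LIPG, endothelial lipase, had 1372, 1234, 1524 and 1752 normalized counts in the poGC-KD libraries, against 534, 631, 491 and 491 in the poGC-CT libraries and rose 2.74-fold (log2 fold change 1.45, standard error 0.127, edgeR adjusted p = 6.86e-05). ABCA1 (0.89) and ABCG1 (0.82), which export cholesterol to lipoproteins, rose together with APOA1, and SOAT1 (0.30), which makes cholesteryl esters for droplets, rose by less. Sterol synthesis held 10 rises and 0 falls among 25 tested genes, 1 of them with a fold above 1.5, and a median of 0.14. At an unadjusted p under 0.05 edgeR gave 13 rises and 0 falls, and DESeq2 gave 11 rises and 0 falls at its adjusted p. A single fall appeared without poGC-KD replicate 4. The rises included NSDHL (0.44), TMEM97 (0.42) and STARD4 (0.62), a carrier of cholesterol between membranes. This count was fragile: it was 4 with the replicate block, 6 with upper-quartile scaling, and 4 to 6 without any one of 7 of the 8 libraries, with 4 without poGC-KD replicate 3 and without poGC-CT replicate 3 or 4. Among enzymes of fatty acid elongation and activation, ELOVL7 (0.49) and SCD (0.36) rose while ELOVL1 (-0.55), ELOVL5 (-0.34), ACSL3 (-0.50) and ACSL4 (-0.46) fell.

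Energy metabolism outside lipids changed in single steps. In the list of glycolysis and lactate, 10 of 29 tested genes rose and 4 fell. The number of rises was 5 with the replicate block, and it was 4 to 6 without any one of poGC-KD replicates 2 and 3 or of the 4 poGC-CT libraries, with 4 without poGC-CT replicate 3 or 4. SLC2A3 (0.76), a glucose transporter, SLC16A1 (0.49), a lactate transporter, and ENO1 (0.35), enolase, rose, whereas PFKM (-0.59), a phosphofructokinase, and PDK4 (-0.61), which restrains pyruvate dehydrogenase, fell. The nuclear-encoded respiratory chain stood apart by how few of its genes were called, with 0 rises and 2 falls among 60 tested and a median of -0.01. At an unadjusted p under 0.05 edgeR gave 1 rise and 5 falls. With DESeq2 in place of edgeR it held 1 rise and 5 falls, and without any one library the falls numbered 1 to 5 (5 without poGC-KD replicate 3 or poGC-CT replicate 1, and 1 without any other) and the rises 0 to 2 (2 without poGC-KD replicate 4, 1 without poGC-CT replicate 2). Cytosolic ribosomal proteins too had few calls, with 1 rise, RPL3 (0.24), and 1 fall, RPS27A (-0.30), among 72 tested genes. This is far under the 15.2% and 13.6% of all rows. Without poGC-CT replicate 2 the rises numbered 3, and with the replicate block the falls numbered 3. Among factors that build the ribosome, 24 of 58 tested rose and 1, NPM1 (-0.26), fell, with a median of 0.15 and none past a fold of 1.5. DKC1 (0.38), which modifies ribosomal RNA, NAT10 (0.44), NOL6 (0.44) and MYBBP1A (0.29) had the lowest p. In a single fit of all 16 libraries the rises numbered 14, and the falls numbered 3 without poGC-KD replicate 3 and 2 without poGC-KD replicate 2 or poGC-CT replicate 1.

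The extracellular matrix changed in both directions at once. Of 35 tested collagen chains, 10 rose and 9 fell, with a median of -0.03, and of 61 glycoproteins of the basement membrane and matrix, 13 rose and 16 fell, with a median of 0.00. Within collagen IV, the network of basement membranes, the chains split. The 4 chains with high counts all fell: COL4A3 (-0.35), COL4A4 (-0.48), COL4A5 (-0.40) and COL4A6 (-0.37), of which COL4A3 did not pass in a single fit of all 16 libraries (edgeR adjusted p = 0.0566). COL4A1 had 63.8, 64.7, 72.4 and 49.3 normalized counts in the poGC-KD libraries, against 14.8, 8.21, 21.9 and 13.4 in the poGC-CT libraries, and rose without overlap (log2 fold change 2.09, standard error 0.301, edgeR adjusted p = 0.00109). COL4A2, which pairs with it, had 51.8 ± 7.97 normalized counts in poGC-KD and 13.1 ± 2.87 in poGC-CT (SD, n = 4 each) and rose by a similar amount (log2 fold change 1.97, edgeR adjusted p = 0.000428). Both were close to the lower end of what could be tested. Fibrillar collagens also differed, with COL3A1 (-0.88) and COL11A1 (-0.82) lower, COL2A1 (1.38) higher and COL1A2 not called (log2 fold change -0.06, edgeR adjusted p = 0.430).

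Among the glycoproteins, TGFBI (0.79) and FBLN2 (0.90) rose, and FBLN1 (-1.18), LAMB1 (-0.996), a laminin chain, and THBS1 (-0.68), thrombospondin, fell. EFEMP1, a fibulin, had 2702, 3298, 3588 and 3603 normalized counts in the poGC-KD libraries, against 10678, 10233, 8195 and 9295 in the poGC-CT libraries and lost 65.6% (log2 fold change -1.54, standard error 0.113, edgeR adjusted p = 2.76e-05). MGP (-1.53), an inhibitor of calcification, fell as much. FN1, fibronectin, the most counted of them, had a log2 fold change of 0.06 and was not called (edgeR adjusted p = 0.265), and ZP3 (-0.33), a protein of the perivitelline layer that granulosa cells make in the hen, fell. Integrins, the receptors of this matrix, moved to either side: ITGB5 (0.91), ITGAV (0.53) and ITGA2 (0.74) rose and ITGA11 (-0.62), ITGA9 (-1.09) and ITGA4 (-1.25) fell among 16 tested, with 4 rises and 5 falls in all. The falls numbered 3 with the replicate block, in a single fit of all 16 libraries, and without any one of poGC-KD replicates 2 and 3 or poGC-CT replicates 1 and 4.

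Proteases of the matrix and their inhibitors held 16 falls and 9 rises among 46 tested genes, with a median of -0.19. PLAU, urokinase, which activates plasminogen and is regulated in hen granulosa cells before ovulation, had 3185, 4055, 4301 and 4586 normalized counts in the poGC-KD libraries, against 14957, 12485, 12528 and 15111 in the poGC-CT libraries. The groups lay far apart, a loss of 70.7% (log2 fold change -1.77, standard error 0.121, edgeR adjusted p = 1.96e-05). MMP9, a gelatinase, had 3191, 3436, 3493 and 3210.5 normalized counts in the poGC-KD libraries, against 7275, 8064, 6760.3 and 7191 in the poGC-CT libraries, also without overlap (log2 fold change -1.14, standard error 0.0608, edgeR adjusted p = 6.64e-06). MMP10 (-0.68), ADAMTS1 (-0.58) and the inhibitor TIMP2 (-0.58) fell too. Rises included PLAT (0.79), the other plasminogen activator, and LOXL2 (0.68), which crosslinks collagen, so that both plasminogen activators moved, in opposite directions.

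Among interferon-stimulated and RNA-sensing genes, falls outnumbered rises. Of 49 tested, 23 fell, 2 of them with a fold above 1.5, and 1 rose, with a median of -0.20. These genes took a large share of the library in both groups, 1.625% to 1.909% of all counts in the poGC-KD libraries, against 1.963% to 2.138% in the poGC-CT libraries. IFIT5, an RNA-binding antiviral protein, had 55739, 57895, 59902 and 60334 normalized counts in the poGC-KD libraries, against 89500.3, 81702, 88314 and 88222 in the poGC-CT libraries (log2 fold change -0.57, standard error 0.0441, edgeR adjusted p = 3.48e-05). IRF7 (-0.53), NMI (-0.36) and IFI27L2 (-0.85) fell, and so did SOCS1 (-0.63), which restrains cytokine signalling. RSAD2 (-0.43) fell too, but not in a single fit of all 16 libraries (edgeR adjusted p = 0.0633). PLSCR1 (0.90) was the rise. The number of falls was 15 without poGC-CT replicate 4, 14 with the replicate block and 12 in a single fit of all 16 libraries. Leukocyte markers summed to 81.13 to 89.16 CPM in the poGC-KD libraries, against 105.7 to 118.9 in the poGC-CT libraries, nearly all from CD74 (-0.39), the only one of 4 tested that fell. The part of leukocytes in these falls was not tested.

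Inflammatory genes had 16 falls (19.3%) and 9 rises (10.8%) among 83 tested, against 13.6% and 15.2% of all rows. LIF (-1.04), a cytokine of the interleukin-6 family, and TNFRSF11B (-1.12), the decoy receptor of RANKL, fell, while TNIP3 (2.36), an inhibitor of NF-kB signalling, rose from a low count. Lysosome and autophagy genes had 22 falls and 7 rises among 80 tested, with a median of -0.08. ATP6V0A1 (-0.55), a subunit of the proton pump, and SQSTM1 (-0.53), an autophagy receptor, fell, and SCARB2 (0.67) and LIPA (0.40), the lysosomal lipase, rose. The rises numbered 4 without any one of poGC-KD replicates 2, 3 and 4 or poGC-CT replicate 1. Chaperones of the endoplasmic reticulum had 10 falls and 2 rises among 40 tested, all under a fold of 1.5, with CANX (-0.54), calnexin, HERPUD1 (-0.52) and ATF6 (-0.34) lower and ERN1 (0.43), the stress sensor, and CRELD2 (0.42) higher.

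Listed cell death genes moved both ways, but only falls among them passed a fold of 1.5. In the list of p53 targets and the BCL2 family, 9 of 54 fell (16.7%) and 5 rose (9.26%), against 13.6% and 15.2% of all rows. A fold above 1.5 was met by 7 of the 54 as falls and by 0 as rises, against 4.3% and 5.18% of all rows. The rises numbered 3 without poGC-KD replicate 1 or poGC-CT replicate 4. PLK2 (-1.005), BTG2 (-0.66) and TP53INP1 (-0.71), known p53 targets, and BOK (-0.88), a member of the BCL2 family that promotes death, fell, as did MCL1 (-0.52), which protects from it. XIAP (0.40), an inhibitor of caspases, and CASP2 (0.56), a caspase, rose. FAS, a death receptor and one of the genes the study names, had 2365, 2887, 2668 and 3108 normalized counts in the poGC-KD libraries, against 5787, 5557, 5904 and 5719 in the poGC-CT libraries, a loss of 52.0% without overlap (log2 fold change -1.06, standard error 0.0787, edgeR adjusted p = 2.98e-05). BCL2A1, which protects from apoptosis, was near the limit of counting, with 11.9, 16.4, 7.57 and 23.6 normalized counts in the poGC-KD libraries, against 48.3, 37.0, 58.4 and 51.6 in the poGC-CT libraries (log2 fold change -1.71, standard error 0.347, edgeR adjusted p = 0.00636), and it did not pass in a single fit of all 16 libraries (edgeR adjusted p = 0.163). HAS2, also named by the study, had 148, 174, 127 and 124 normalized counts in the poGC-KD libraries, against 53.7, 75.0, 79.4 and 78.3 in the poGC-CT libraries (log2 fold change 1.00, standard error 0.182, edgeR adjusted p = 0.00376). SOX9, the factor of the testis pathway, had 157, 179, 129.6 and 128 normalized counts in the poGC-KD libraries, against 144, 108, 153 and 135 in the poGC-CT libraries. Its groups overlapped, and no difference was detectable at this depth (log2 fold change 0.14, standard error 0.166, edgeR adjusted p = 0.584).

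Immediate early and ERK feedback genes had 15 falls and 7 rises among 45 tested, with a median of -0.18. JUN (-0.60), ATF3 (-0.54) and SPRY2 (-0.65) fell, and ARC (1.296), ETV1 (0.74) and KLF11 (0.60) rose. Signalling genes of other pathways moved singly. CTNNB1 (-0.52), beta-catenin, and DACT1 (-1.07), a Wnt modulator, fell, and WNT6 (1.03) and NKD1 (1.48) rose, among 14 falls and 8 rises of 52 Wnt genes. These were 9 falls with the replicate block, and 5 rises without poGC-KD replicate 2 or 4. NRARP (-1.14) and LFNG (-1.05), known from Notch signalling, fell. RGS3 (1.42), which limits signals of G proteins, rose, and MET (-0.81), the receptor of hepatocyte growth factor, fell.

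Gonad transcription factors had 7 rises (18.4%) and 10 falls (26.3%) among 38 tested, against 15.2% and 13.6% of all rows. FOXL2 is itself such a factor, and its fall (-0.68) is that of the siRNA target and not a response to the knockdown. GATA4 (0.77) and NR5A2 (1.07) rose, and DMRT2 (0.63) with them, whereas FOXP1 (-0.54), ZFPM2 (-0.34), the cofactor of GATA factors, and SOX8 (-0.83) fell. NR5A1 and GATA6, which are close relatives of NR5A2 and GATA4, were not called, with log2 fold changes of 0.08 (edgeR adjusted p = 0.436) and -0.14 (edgeR adjusted p = 0.149). NR5A2 had 9662, 9989.9, 9075 and 9015 normalized counts in the poGC-KD libraries, against 4591, 4220.2, 4337 and 4781 in the poGC-CT libraries, a rise of 2.11-fold without overlap (log2 fold change 1.07, standard error 0.0543, edgeR adjusted p = 5.42e-06). The plot of lists sets the counts of all groups beside the shares of all rows.

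**Figure D4:**
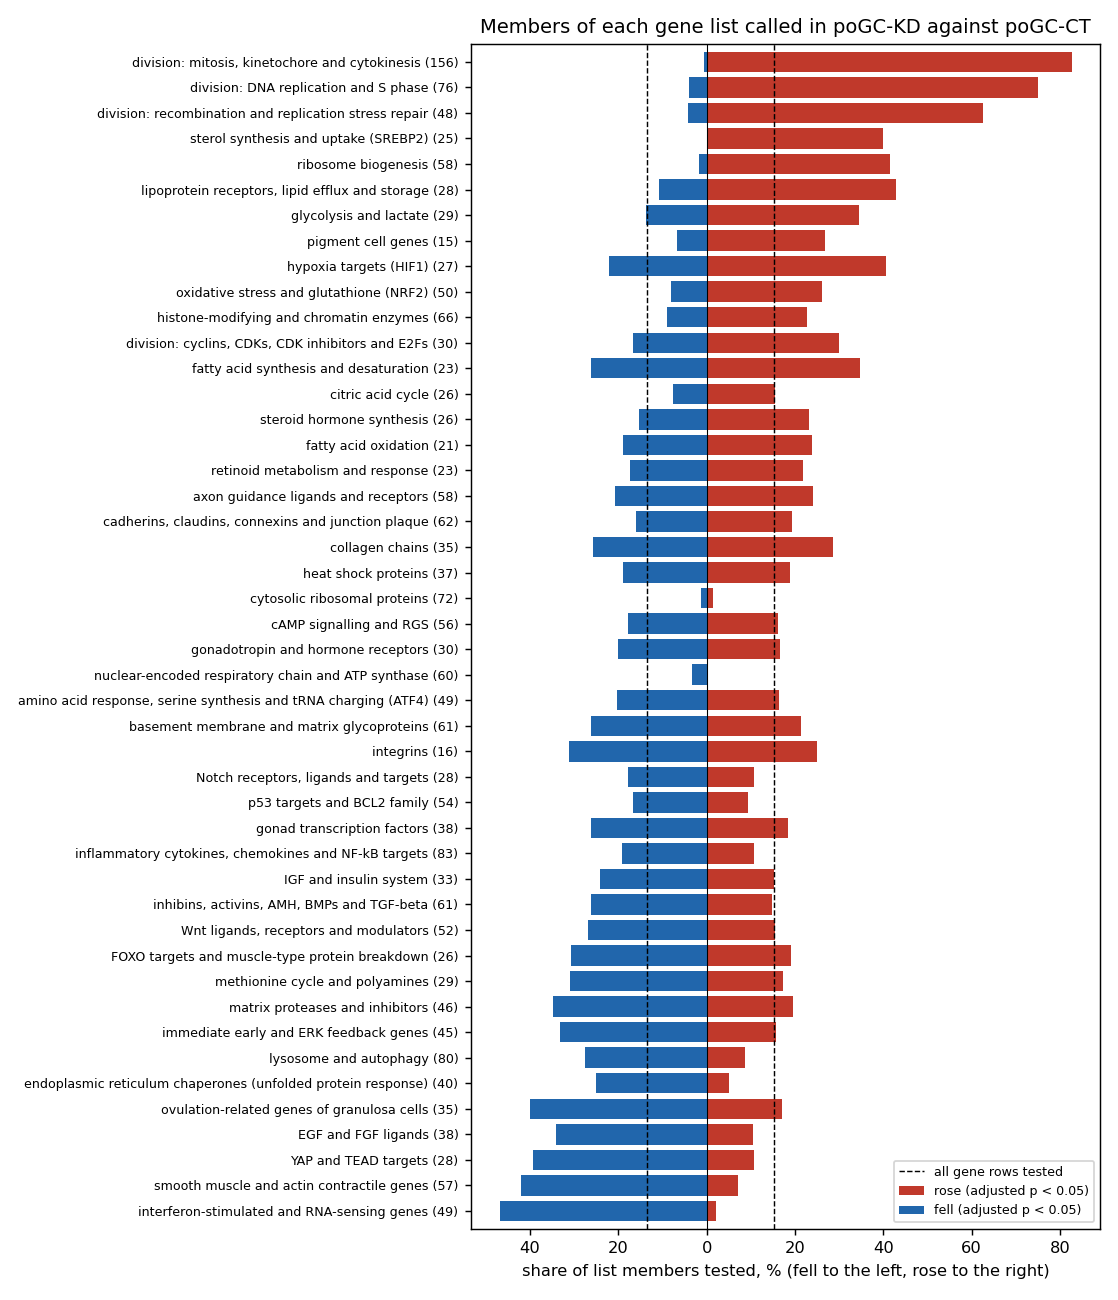
Share of the tested members of each hand-made gene list that rose (red, to the right) or fell (blue, to the left) in poGC-KD against poGC-CT at an adjusted p under 0.05, with the number tested in parentheses. Dashed lines mark the shares among all rows tested, 15.2% up and 13.6% down, and ribosomal proteins and the respiratory chain lie well inside them.

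The same contrast in phGC shows where the response of poGC differed, tested as an interaction term over all 16 libraries, which 1367 of 14775 rows passed (9.25%). In that fit 17.4% of rows changed in phGC. FOXL2 itself had a log2 fold change of -0.42 in phGC (edgeR adjusted p = 0.0237), against -0.68 in poGC. The part of the depth of knockdown in the differences below was not tested. The genes were chosen for the size of their change in poGC, which by itself favours a smaller change in phGC. Of the 20 largest rises in poGC, 16 rose in phGC as well and none fell, and the interaction was passed by 14, each with the larger change in poGC. Of the 20 largest falls, 15 fell in phGC and none rose, and 13 passed the interaction, again each with the larger change in poGC. SLC26A3 rose in both, by 3.36 in poGC and 2.41 in phGC on the log2 scale. GGT5, by contrast, had 1.99 in poGC and 1.88 in phGC, with an interaction of 0.09 that did not pass (edgeR adjusted p = 0.927). For IHH the interaction was 2.12 (edgeR adjusted p = 3.82e-05), since phGC had a log2 fold change of 0.45 that did not pass the test. RDH10 had a log2 fold change of 0.07 in phGC, with an interaction of -1.61 (edgeR adjusted p = 1.01e-06).

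Some genes changed in opposite directions. FGL2 had 17697, 20746, 19486 and 20775 normalized counts in the poGC-KD libraries, against 40035, 34993, 40364 and 38269.5 in the poGC-CT libraries, a fall (log2 fold change -0.97), while in phGC it rose by 0.81 (interaction -1.79, edgeR adjusted p = 5.14e-06). STAR fell by 0.46 in poGC on the log2 scale and rose by 0.46 in phGC (edgeR adjusted p = 0.0223; interaction -0.93, edgeR adjusted p = 0.00401). CYP17A1 had 0.40 in phGC (interaction -1.07, edgeR adjusted p = 0.0242) and AMH 0.20 (interaction -1.11, edgeR adjusted p = 0.00263), neither of which passed the test in phGC (edgeR adjusted p = 0.175 and 0.377). The interaction was passed as well by PTGS2 (-0.74, edgeR adjusted p = 0.00316), INHBB (1.78, edgeR adjusted p = 0.000647) and COL3A1 (-0.79, edgeR adjusted p = 0.00118), and not by FOXL2 (-0.27, edgeR adjusted p = 0.396), CSRP2 (0.05, edgeR adjusted p = 0.914) or GATA4 (-0.07, edgeR adjusted p = 0.819).

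**Figure D5:**
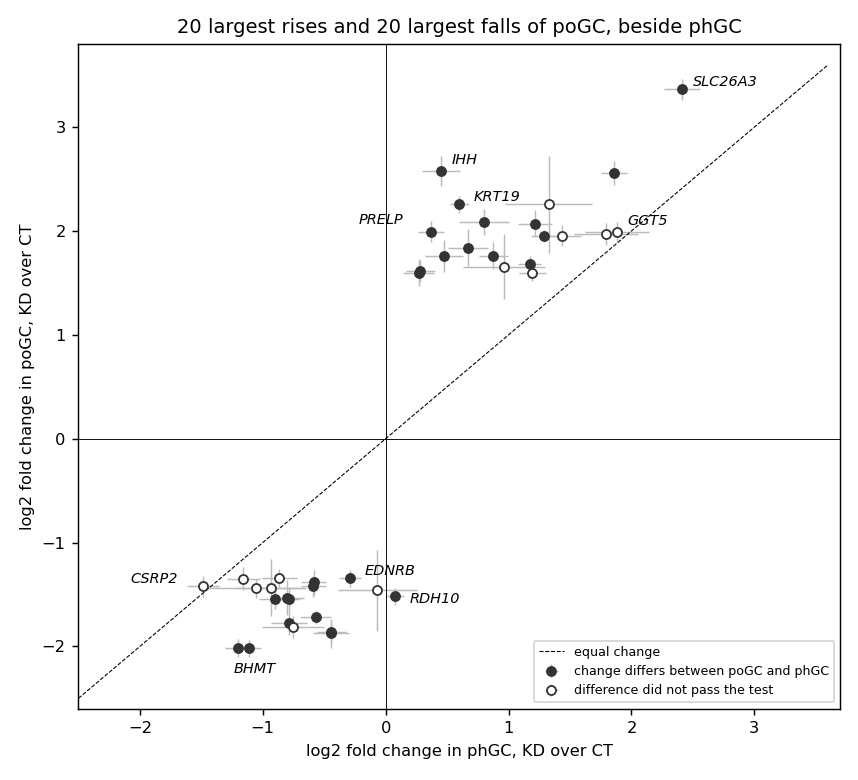
Log2 fold change in poGC (vertical axis) against that in phGC (horizontal axis), KD over CT in each, for the 20 largest rises and 20 largest falls of poGC, with standard errors as bars. Filled points passed the test of the difference, and nearly all points lie farther from 0 on the poGC axis than on the phGC axis, as their choice by size in poGC favours.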

How the data were processed

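Primary granulosa cells were transfected, poly-A RNA was sequenced as paired ends, and the libraries poGC-KD and poGC-CT (4 each in the labels, although the series' own design text speaks of triplicates) were compared. For each library the authors deposited raw counts of reads per gene row, without normalization, on 18151 rows under 18053 symbols. Of these rows 187 share a symbol and were tested apart. FPKM values, which the authors also deposited for every row, relate the fragments of a row to its transcript length and to the library total. The paper names TopHat2 and the Gallus_gallus-5.0 genome, whereas the submitters' processing notes name HISAT2 2.1.0, StringTie 1.3.4d and DESeq2 1.26.0. The counting step, its annotation and its strand setting are not given in the sources used here, so that reads of overlapping, antisense or near-identical genes may be shared. Rows carry symbols only, and no coordinates are given.

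Counts were tested with edgeR 4.0.16 in R 4.3.3 (filterByExpr, TMM, glmQLFit and glmQLFTest, Benjamini-Hochberg over the 14379 rows kept). Normalized counts are counts divided by the effective library size and multiplied by its mean. FPKM values served only as a check of direction: over 9306 rows with a mean of at least 500 counts, their log2 fold changes differed from those of the counts by a median of 0.0373, by over 0.3 for 106 rows, and in sign for 8 rows called, none of which is named. The comparison with phGC was an interaction term in a fit of all 16 libraries. The poGC libraries had 36191442 counts or more and the phGC libraries 29979116 or more, and the spread between libraries, which includes counting error, gives the precision.

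The members and the gene lists, which were compiled by hand, were chosen with earlier results of these data known. Named were FOXL2 and the genes the study names as possible targets. The 20 largest rises and falls were named among rows with a mean of at least 500 counts, an adjusted p under 0.05, no overlap, a gene symbol that is no LOC or clone name, and no place in a list of cell division. The 8 largest rises and falls were named among the 300 rows with the highest mean counts. In each list up to 4 called members with the lowest p in each direction were named, and members needed to describe the list. Which of these were needed, the SLC list and the hedgehog genes were chosen after their values were seen. Marker genes were summed as CPM. No list was tested as a list.

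Replicate numbers did not pair the libraries: deviations of same-numbered libraries from their group means had correlations of -0.0756 to 0.0165. The alternatives were upper-quartile scaling, DESeq2 1.42.0, no filter beyond 1 count, at least 10 counts in every library, a single fit of 16 libraries, the replicate block, a test against a fold of 1.2, the unadjusted p of the study, and leaving out each library. In simulated data for comp. poGC on 14217 genes, the test found 59% of 100 genes changed by 1.5-fold and 89% of 100 changed by 2-fold, and 4.52% of its calls were false. The interaction term, on 14592 genes, found 22% and 62%, with 1.18% false. No other genes were changed, a far smaller share than the 28.8% of rows called in the data. Counts were drawn from a negative binomial model, as the test assumes. These rates therefore need not hold for the real comparison.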

Additional observations from a re-analysis of the deposited data

Results flagged for a closer look

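The library values of 37 genes were examined for a single library that stood apart from the others of its group, in 74 groups of 4. Chance flags about 1 in 20 such groups, and 2 were found. GREM1 in poGC-KD replicate 1 had 304.8 normalized counts, against 376.3 to 388.3 in the other poGC-KD libraries. IFIT5 in poGC-CT replicate 2 had 81700 normalized counts, against 88220 to 89500 in the other poGC-CT libraries. Neither library decided the call of its gene.

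For 25 of the 37 genes the change in poGC differed from that in phGC by the interaction term (edgeR adjusted p under 0.05 over 14775 rows, of which 9.25% passed). The genes were chosen for their change in poGC. The log2 fold change in poGC minus that in phGC was positive for IHH (2.115), COL4A1 (1.829), INHBB (1.783), STC2 (1.767), KRT19 (1.642), SLC26A3 (0.9393), LIPG (0.8539) and EML4 (0.6434), all of which rose in poGC. It was negative for FGL2 (-1.794), RDH10 (-1.606), INHBA (-1.415), CEMIP (-1.162), AMH (-1.107), CYP17A1 (-1.066) and PLAU (-1.001). Smaller negative differences were found for STAR (-0.9284), PCK1 (-0.9196), BHMT (-0.824), HSPA2 (-0.8127), EFEMP1 (-0.7687) and PTGS2 (-0.7426). The rest were FST (-0.6375), EDN1 (-0.6108), MMP9 (-0.5855) and APLP2 (-0.2733). All of the genes with a negative difference fell in poGC.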

How the results depend on the processing

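Counts of changed rows moved by over 1.5 times under a single setting, the test against a fold of 1.2, which asks for a larger change: 838 rose and 724 fell, against 2187 and 1951. Leaving out 1 library at a time, 1667 to 1978 rows rose and 1626 to 1919 fell, 669 to 712 rose and 574 to 639 fell with a fold above 1.5, the log2 fold change of FOXL2 ran from -0.75 to -0.62, and 1061 to 1223 rows passed the interaction. With the replicate block, 1662 rows rose and 1484 fell (673 and 543 with a fold above 1.5), 3055 of the 4138 calls were kept, and 1054 rows passed the interaction. Since replicate numbers did not pair the libraries, and 0 of 8 libraries correlated best with the library of its own number, the block is an alternative only. DESeq2 kept 4065 of the 4138 calls and upper-quartile scaling 3926. Scalings moved the median of all rows to between -0.01 and 0.01 and the share of rises among calls to between 48.5% and 52.9%. Of the gene values recomputed, those of GLI1 and PTGES, which were not called, changed sign: GLI1 to 0.08 without poGC-KD replicate 3 and 0.21 without poGC-CT replicate 4, and PTGES to -0.0029 with upper-quartile scaling, -0.13 without poGC-KD replicate 1, -0.07 without poGC-CT replicate 1 and -0.03 without poGC-CT replicate 4. Without any one library, GLI1 ranged from -0.25 to 0.21 and PTGES from -0.13 to 0.10. No called gene reversed. Depth limits genes of few counts, such as BCL2A1, COL4A1 and GLI1. All 8 libraries come from cultures whose hens are not identified, and 1 siRNA was used.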

Other observations

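Several well-counted rows had single libraries at a wholly different level, and did not meet the rule for named genes because the groups overlapped. They were picked for this after their values were seen. TMSB4X, which binds actin monomers, had 27612, 32570.4, 33019.9 and 908 normalized counts in the poGC-KD libraries, against 1253, 1430.3, 1204 and 1116 in the poGC-CT libraries. Thus 3 poGC-KD libraries were far above all of poGC-CT and poGC-KD replicate 4 was below it. MOB3B had 301, 312, 81894 and 113 normalized counts in the poGC-KD libraries, against 329, 1176, 231 and 171 in the poGC-CT libraries, so that 1 library held nearly all of its counts. FAM83D had 3141, 48.3, 60.6 and 3437 normalized counts in the poGC-KD libraries, against 57.7, 10.3, 0.91 and 0.95 in the poGC-CT libraries. Of the 9306 rows with a mean of at least 500 counts, 449 had libraries of a group that differed by over 2-fold, of which 27 were called.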
